A study of Mus musculus with 32 samples.

Results

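Expression of 10 genes of canonical Wnt signalling was followed through 6 days of retinal organoid formation: the secreted antagonists Sfrp1, Sfrp2, Sfrp5, Frzb, Dkk1 and Dkk3, and the target genes Axin2, Lef1, Sp5 and Nkd1. They were taken by symbol and each matched 1 row, so 10 of the 55492 rows of the deposited expression table are described. Polyadenylated RNA was sequenced from mouse embryonic stem cells (day 0) and from organoids at days 2, 4 and 6, in 4 kinds of culture with 2 libraries at each day, 32 libraries in 16 groups. The WT cultures came from Rx:GFP stem cells, which are named for a green fluorescent reporter of Rx (Rax), a gene of the eye field. KO stands for the line labelled Mettl3 KO, and the product of Mettl3 catalyses N6-methyladenosine formation on RNA. No Dex and Dex are that KO line overexpressing a fusion, WT MTL3-GRBD in the sample labels and WTMETTL3-GRBD in the protocol. Dex cultures received dexamethasone (Dex), a synthetic glucocorticoid, at 10 µM, and no Dex cultures did not. According to the series, the fusion stays in the cytosol until Dex sends it into the nucleus. Organoids of all 4 kinds were grown with AGN at 0.1 µM. The labels mark the day 0 Dex libraries as Dex treated while the protocol lists Dex for 2, 4 and 6 days. No WT or KO culture given Dex is among the groups, so an effect of Dex apart from the fusion cannot be told apart here. The labels do not say whether KO and the fusion line are each 1 clone.

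Canonical Wnt ligands bind Frizzled receptors with the coreceptors Lrp5 and Lrp6, which stabilises β-catenin, and β-catenin with TCF/LEF factors then switches on target genes. SFRP proteins and Frzb carry a Frizzled-like cysteine-rich domain and bind Wnt ligands outside the cell, while Dkk1 binds the Lrp coreceptors. Dkk3 belongs to the Dickkopf family but its part in Wnt signalling is less settled. Axin2 (a scaffold of the β-catenin destruction complex), Nkd1 (a Dishevelled-binding inhibitor), Sp5 (a zinc finger repressor) and Lef1 (a TCF/LEF factor) are commonly used as transcriptional readouts of the pathway. In the forming head, low Wnt activity goes with forebrain and eye field identity, and higher activity with more posterior and dorsal fates.

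Promoter sequences are shown for Sp5, Axin2 and Nkd1, the 3 targets that were high together at days 4 and 6, and for Dkk1, chosen among the antagonists because its window held the most motif matches. Frzb and Sfrp1 rose from day 2 to day 4 in KO as Dkk1 did. Each window runs from 250 bases before to 50 after the RefSeq transcription start, 5′ to 3′ on the gene's strand, on GRCm38.p6. Capitals mark matches to the TCF/LEF core written as CTTTGA or CTTTGT, searched on both strands (TCAAAG and ACAAAG on the other strand). The windows are chr2:70474673-70474972 (+) for Sp5, chr11:108920099-108920398 (+) for Axin2, chr8:88527383-88527682 (+) for Nkd1 and chr19:30549447-30549746 (-) for Dkk1.
Sp5: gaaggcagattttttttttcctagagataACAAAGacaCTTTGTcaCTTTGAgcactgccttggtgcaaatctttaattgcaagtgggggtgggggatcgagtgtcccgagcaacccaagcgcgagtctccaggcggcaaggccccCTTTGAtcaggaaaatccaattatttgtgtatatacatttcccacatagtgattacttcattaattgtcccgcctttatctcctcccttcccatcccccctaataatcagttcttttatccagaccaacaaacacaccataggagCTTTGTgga
Axin2: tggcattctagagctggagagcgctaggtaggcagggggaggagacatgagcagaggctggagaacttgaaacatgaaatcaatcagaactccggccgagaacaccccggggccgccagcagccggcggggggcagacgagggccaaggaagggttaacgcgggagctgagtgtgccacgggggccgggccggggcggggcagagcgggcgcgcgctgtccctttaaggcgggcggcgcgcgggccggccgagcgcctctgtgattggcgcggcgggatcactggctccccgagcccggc
Nkd1: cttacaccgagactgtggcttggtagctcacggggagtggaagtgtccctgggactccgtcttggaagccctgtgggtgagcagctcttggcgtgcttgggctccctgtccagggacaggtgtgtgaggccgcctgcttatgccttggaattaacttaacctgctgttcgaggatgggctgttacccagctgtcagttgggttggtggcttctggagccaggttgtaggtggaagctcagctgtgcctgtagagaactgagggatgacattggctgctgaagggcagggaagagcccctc
Dkk1: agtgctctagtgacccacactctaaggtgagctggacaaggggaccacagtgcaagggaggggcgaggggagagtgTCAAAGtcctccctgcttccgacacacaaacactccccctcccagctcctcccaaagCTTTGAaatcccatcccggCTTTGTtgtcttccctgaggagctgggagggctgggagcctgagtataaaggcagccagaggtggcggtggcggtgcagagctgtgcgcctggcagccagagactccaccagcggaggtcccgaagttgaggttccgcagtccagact
The Sp5 window held 5 matches, 4 of them 221, 212, 204 and 104 bases before the start site, counted from the first base of the match. The Dkk1 window held 3, at 174, 117 and 98 bases before the start, and no match overlapped another. The Axin2 and Nkd1 windows held none. Of all 32851 RefSeq windows of 300 bases, 31.2% held at least 1 match and 1.14% held 3 or more. Since Dkk1 was chosen for its match count, the 1.14% is no test of its 3 matches. RefSeq windows were found for 8 members, and 4 of the 8 had a match: besides Sp5 and Dkk1, Frzb had 1 and the most downstream of 4 Lef1 windows had 3. That count is per gene, over all of its windows, while the 31.2% is per window, so they are unlike measures. A match describes the letters of a window and is not a measured binding site. In the GENCODE annotation Sp5 lies at chr2:70474923-70477729, Axin2 at chr11:108920349-108950783, Dkk1 at chr19:30545863-30549665 and Nkd1 at chr8:88521354-88594884. The annotated Nkd1 and Dkk1 genes therefore begin upstream of the RefSeq starts used for their windows. The Dkk1 matches at 117 and 98 lie inside the annotated gene. The whole Nkd1 window lies inside the annotated gene and does not cover its annotated start, where matches were not searched.

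Expression is given as FPKM, fragments scaled to transcript length and to the number of mapped fragments, so levels can be set side by side between genes. Depth estimated from the steps of low values was between 27.7 M and 55.1 M fragments (median 38.2 M), at which 3 fragments on a transcript of 2 kb correspond to between 0.032 and 0.064 FPKM. That range comes from the spread of depth between libraries at a fixed 3 fragments, and includes no counting error or variation between libraries. Pearson r between duplicates, across genes, was 0.9922 to 0.9955. Mettl3 mRNA was between 32.5 and 41.2 FPKM in the 8 WT libraries and between 34.9 and 43.8 in the 8 labelled KO, so its level does not check the genotype, and KO is used here for libraries with that label. In the fusion libraries Mettl3 was between 44.5 and 75.1 FPKM. The duplicates are separate library preparations per the labels, with nothing said of separate cultures, so p-values measure the spread between these libraries, which may be technical. In bulk RNA, fewer cells of a type and less RNA per cell cannot be told apart. The defining markers of day 0 and of the eye field were present where the labels place them: the summed FPKM of 7 pluripotency genes was 1947 and 2052 in WT at day 0 and that of 5 eye field genes 681 and 647 in WT at day 6.

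Axin2, Sp5 and Nkd1 were higher in KO than in WT at days 4 and 6, while the antagonists split: Frzb was higher in KO at both days, Dkk1 was higher at day 4 and lower at day 6, Sfrp5 was lower at day 6, and Dkk3 was slightly higher at days 2 and 4 and lower at day 6. Differences were tested with limma on log2(FPKM + 1), and a difference was called where its p, adjusted by Benjamini and Hochberg over all 16276 tested genes, was under 0.05. At day 0, 5 of 10 members were called between KO and WT (2 higher and 3 lower), beside 48.2% of all tested genes, and 0 of them with a log2 change of at least 1, beside 1.37% of all genes. At day 2 the count was 8 of 10 (7 higher and 1 lower), beside 58.9%, with 2 past a change of 1 against 4.72%. At day 4 it was 9 of 10 (8 higher and 1 lower), beside 60.5%, with 5, all higher, past a change of 1 against 5.54%. At day 6 it was 9 of 10 (5 higher and 4 lower), beside 65.1%, and 7 passed a change of 1 (4 higher and 3 lower) against 10.0%. Since 48.2% or more of all genes were called in each of these 4 comparisons, a call by p alone says little about the members, and the size of a change carries more. The median log2 change of the members was 0.83 at day 4 and 0.15 at day 6, against 0.065 and -0.031 for all tested genes. The day 0 count rests partly on 1 library: without the first WT day 0 library it was 3, and in a fit of the 2 groups alone it was 2.

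Sfrp2 was the most abundant of the 6 antagonists at day 6 in every kind of culture, and it rose at each step. In WT it went from 11.2 and 10.6 FPKM at day 0 to 31.6 and 31.5 at day 2, 38.5 and 40.5 at day 4 and 139 and 132 at day 6. By day 6 it was 122 and 126 FPKM in no Dex, 112 and 116 in KO and 93.3 and 95.99 in Dex. These 4 groups did not overlap, and WT was the highest and Dex the lowest. The differences were small beside the rise over time, with a log2 change of -0.25 for KO against WT (SE 0.04, adjusted p = 2.40e-05) and -0.39 for Dex against no Dex (SE 0.04, adjusted p = 2.63e-07), against 3.52 for WT from day 0 to day 6.

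Sfrp1 stayed below 9 FPKM in all 16 libraries of days 0 and 2 and was above 41 FPKM in all 16 libraries of days 4 and 6. At day 4 it was 41.4 and 43.2 FPKM in WT, 47.4 and 48.3 in KO, 49.7 and 49.5 in no Dex and 53.5 and 53.8 in Dex. At day 6 it was 49.2 and 47.7 in WT and 50.95 and 51.3 in KO, but 73.3 and 72.7 in no Dex and 90.2 and 87.8 in Dex. The fusion cultures stood above WT and KO with no overlap, and Dex above no Dex. The day 6 change was 0.51 for no Dex against KO (SE 0.03, adjusted p = 1.26e-10) and 0.28 for Dex against no Dex (SE 0.03, adjusted p = 6.69e-07).

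At day 0 Sfrp1 was lower in KO, at 6.38 and 6.00 FPKM against 8.13 and 7.83 in WT, with a log2 change of -0.32 (SE 0.03, adjusted p = 1.07e-07) that missed the threshold in a fit of the compared groups alone (adjusted p = 0.0533). For KO against WT, Sfrp1 then gave 0.22, 0.18 and 0.07 at days 2, 4 and 6, each called. Sfrp1 lies on chromosome 8 (chr8:23411502-23449632, +), whose 858 tested genes had a median KO against WT change of 0.244, 0.337 and 0.350 at those days, against 0.080, 0.054 and -0.048 for genes elsewhere. Set against its own chromosome's median, Sfrp1 turned to -0.03, -0.16 and -0.27, so its direction depends on that reference. The day 4 call was lost after rescaling (adjusted p = 0.0607). The day 6 call was lost in 7 of 10 alternatives with a test, where the adjusted p ranged from 0.0051 to 0.265, against 0.0459 with all libraries and settings as given. Without the second WT day 6 library it was 0.265, and without the first or second KO day 6 library 0.101 and 0.144.

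Frzb was near 0 before day 4 in every culture and then differed between them. Its highest value in the 16 libraries of days 0 and 2 was 0.45 FPKM, in KO at day 2. At day 4 it was 6.81 and 6.15 in WT, 18.7 and 16.9 in KO, 16.2 and 15.7 in no Dex and 32.4 and 32.5 in Dex. Dex was highest and WT lowest, with no overlap between any of the 4 groups. KO against WT gave a log2 change of 1.33 (SE 0.08, adjusted p = 2.04e-11), and Dex against no Dex a log2 change of 0.99 (SE 0.08, adjusted p = 7.68e-09).

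By day 6 the order of Frzb had turned: KO held 15.3 and 16.1 FPKM, no Dex 8.47 and 8.36, WT 6.33 and 6.41 and Dex 4.44 and 4.19. Dex, the highest at day 4, was now the lowest, again with no overlap between groups. Between days 4 and 6 Frzb fell by 2.66 on the log2 scale in Dex (adjusted p = 3.06e-16) and by 0.84 in no Dex (adjusted p = 9.88e-09), and the change in WT was -0.02 (adjusted p = 0.846). Dex against no Dex at day 6 was -0.83 (SE 0.08, adjusted p = 6.58e-08).

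Dkk1 held about 1 FPKM in WT through day 4 and made a peak at day 4 in the other 3 cultures. In WT it was 0.90 and 1.04 FPKM at day 0, 1.23 and 1.34 at day 2, 0.92 and 1.05 at day 4 and 2.10 and 2.31 at day 6. The KO libraries held 0.15 and 0.12 at day 0, 0.08 and 0.07 at day 2, 4.47 and 4.52 at day 4 and 0.63 and 0.45 at day 6. KO was thus below WT at days 0, 2 and 6 and above it at day 4, with no overlap at any day. The log2 change of KO against WT was -0.79, -1.09, 1.47 and -1.06 at days 0, 2, 4 and 6, with SE 0.08 and adjusted p of 1.13e-07, 6.57e-10, 5.99e-12 and 4.94e-10. In the fusion line at day 4 Dkk1 was 5.10 and 4.57 FPKM without Dex and 8.15 and 7.84 with it. At day 6 it was 1.38 and 1.02 without Dex and 3.02 and 2.51 with it. Dex was above no Dex at both days without overlap, with a log2 change of 0.63 (SE 0.08, adjusted p = 3.43e-06) at day 4 and a log2 change of 0.78 (SE 0.08, adjusted p = 1.80e-07) at day 6.

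Beside the Dkk1 and Sfrp5 differences, markers of extraembryonic endoderm, which expresses Wnt antagonists in the early embryo, were higher in WT. The summed FPKM of 6 such genes (Gata4, Gata6, Sox17, Sox7, Foxa2 and Dab2) was 22.6 and 21.3 in WT and 3.99 and 4.32 in KO at day 0, and 66.9 and 66.97 in WT and 11.8 and 11.8 in KO at day 6. At day 6 all 6 were at or above 1 FPKM in WT and 1 was in KO. At day 4, where Dkk1 was higher in KO, the sums were 40.6 and 42.4 in WT and 9.18 and 9.04 in KO. In Dex, where Dkk1 was above WT at day 4, the sum was 10.7 and 11.6. Genes of the anterior visceral endoderm (Cer1, Lefty1, Hhex, Lhx1 and Hesx1, some of them also expressed in stem cells or anterior neural tissue) summed to 158 and 163 in WT, 40.3 and 40.7 in KO and 163 and 168 in Dex at day 4, and to 19.2 and 18.1 in WT and 1.60 and 1.93 in KO at day 6. At day 0 these sums overlapped, at 60.05 and 73.8 in WT and 76.4 and 71.3 in KO. At day 2 they were higher in KO, at 19.7 and 20.9 against 14.6 and 17.8 in WT. For KO against WT at day 4, 2 of the 3 tested genes were called lower and 1 higher. Of these only Hesx1, lower, passed a log2 change of 1. Cer1 was at 0 in KO, no Dex and Dex at day 6. It reached 1 FPKM in fewer than 2 of the 32 libraries, so it was not tested. The part of these endoderm markers in the Dkk1 and Sfrp5 results was not tested.

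Sfrp5 was low throughout and kept a detectable level at day 6 in WT. Its 8 libraries of day 0 lay between 1.79 and 2.78 FPKM. In the day 6 libraries it was 1.62 and 1.27 in WT, 0.07 and 0.12 in KO, 0.08 and 0.05 in no Dex and 0.12 and 0.11 in Dex. WT stood above the other 3, whose ranges overlapped in part and which lay near the level of a few fragments. KO against WT at day 6 gave a log2 change of -1.16 (SE 0.10, adjusted p = 5.96e-09), on a scale that understates changes of low genes.

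Dkk3 reached its highest level at day 6 in WT. It was under 1.2 FPKM in every library before day 6, when KO stood above WT at day 2, at 1.13 and 1.13 against 0.36 and 0.46 (0.60, SE 0.06, adjusted p = 7.88e-08), and at day 4, at 0.89 and 0.88 against 0.52 and 0.46 (0.34, SE 0.06, adjusted p = 7.63e-05). At day 6 it reached 6.29 and 5.93 FPKM in WT, 2.44 and 2.23 in Dex, 1.53 and 1.43 in KO and 0.94 and 0.97 in no Dex. No 2 groups overlapped. KO against WT gave a log2 change of -1.52 (SE 0.06, adjusted p = 4.00e-14), and Dex against no Dex a log2 change of 0.77 (SE 0.06, adjusted p = 6.25e-09). At day 6 WT was highest and Dex next both for Dkk3 and for the summed eye field markers (Rax, Six3, Six6, Lhx2 and Pax6). KO stood above no Dex for Dkk3 and below it for the marker sums. The sums were 681 and 647 FPKM in WT and 416 and 417 in Dex. They were 186 and 182 in no Dex and 117 and 118 in KO. In KO, 2 of these 5 genes were at or above 1 FPKM. Rax, Six3, Six6 and Lhx2 were lower in KO than in WT by over 1 on the log2 scale. Pax6, counted below among the neural progenitor markers too, was not called between KO and WT. At day 4, where Dkk3 was higher in KO than in WT, the eye field sums were lower in KO. They were then 21.8 and 21.9 in KO and 125 and 123 in WT. The part of eye field cells in the Dkk3 levels was not tested.

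**Figure D1:**
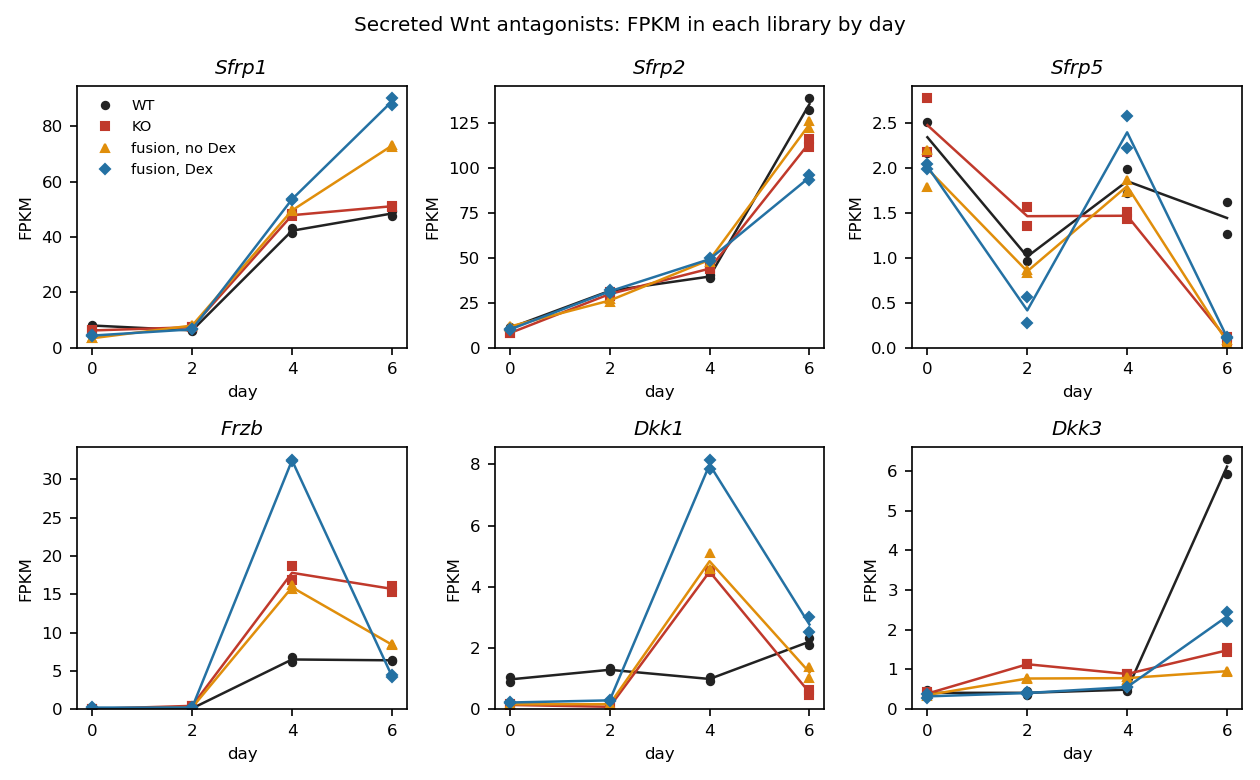
FPKM (vertical axis, linear) of the 6 secreted antagonists by day, 1 point per library and lines through the group means of 2 libraries. Frzb and Dkk1 peak at day 4 in Dex, Frzb at 32.5 FPKM on average, and Dkk3 is highest in WT at day 6, at 6.11 FPKM.

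At days 4 and 6 Axin2 was highest in KO and lowest in WT. At day 4 it was 15.2 and 15.8 FPKM in KO, 11.9 and 11.1 in no Dex, 8.46 and 8.62 in Dex and 2.25 and 2.46 in WT. On day 6 its level was 56.98 and 56.7 in KO, 43.5 and 43.95 in no Dex, 29.7 and 31.3 in Dex and 6.06 and 5.92 in WT. The order KO, no Dex, Dex, WT was the same at both days and no neighbours in it overlapped. Over the 16 groups of Axin2, the 6 highest were the day 6 and then the day 4 groups of KO, no Dex and Dex, each separate from the next, and the lowest 4, WT at days 0, 2 and 4 and Dex at day 2, overlapped in turn. KO against WT gave a log2 change of 2.30 (SE 0.08, adjusted p = 1.61e-14) at day 4 and a log2 change of 3.05 (SE 0.08, adjusted p = 9.44e-17) at day 6. Dex against no Dex gave -0.39 at day 4 (SE 0.08, adjusted p = 7.98e-04) and -0.51 at day 6 (SE 0.08, adjusted p = 4.78e-05). Dex still stood above WT at day 6, by 2.17 on the log2 scale (SE 0.08, adjusted p = 3.01e-14). KO was already above WT at day 2, at 5.16 and 5.36 FPKM against 2.07 and 2.27, with a log2 change of 0.98 (SE 0.08, adjusted p = 4.30e-09).

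Sp5 was close to 0 at days 0 and 2 in every culture, with 0.56 FPKM as its highest value there, and came on at different days. At day 4 KO held 14.6 and 15.3 FPKM, no Dex 7.58 and 6.46, Dex 2.74 and 2.47 and WT 0.16 and 0.18. The 4 groups were separate, in the same order as for Axin2. KO against WT at day 4 gave a log2 change of 3.77 (SE 0.09, adjusted p = 6.02e-17), and was the largest change of a member in any of the 4 KO against WT comparisons. No Dex against KO gave a log2 change of -0.99 (SE 0.09, adjusted p = 2.30e-07), and Dex against no Dex a log2 change of -1.15 (SE 0.09, adjusted p = 7.31e-09).

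At day 6 the no Dex and KO levels of Sp5 had met, at 19 and 19.5 FPKM and 18.99 and 19.2, with Dex at 14.3 and 15.2 and WT at 2.85 and 2.66. No Dex and KO overlapped (log2 change 0.01, SE 0.09, adjusted p = 0.955). Dex against no Dex gave a log2 change of -0.36 (SE 0.09, adjusted p = 0.00304), a call lost with a pseudocount of 0.1, over alternatives whose adjusted p ranged from 0.00258 to 0.383. The level of WT at day 6 overlapped that of Dex at day 4.

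Nkd1 followed Axin2 and Sp5 in being lowest in WT, but its order among the other cultures differed. KO was already above WT at day 2, when Nkd1 was 6.19 and 5.70 FPKM against 2.46 and 1.99. That log2 change was 1.11 (SE 0.11, adjusted p = 9.33e-08). At day 4 Nkd1 was 4.66 and 4.91 FPKM in WT, 16.9 and 16.1 in KO, 15.98 and 17.5 in no Dex and 15.4 and 13.8 in Dex. By day 6 Nkd1 was at 15.1 and 14.9 in WT, 40.6 and 40.9 in KO, 61.7 and 64.4 in no Dex and 58.6 and 59.4 in Dex. At day 4 no Dex and KO overlapped, and at day 6 both fusion cultures stood above KO. KO against WT gave a log2 change of 1.60 (SE 0.11, adjusted p = 4.25e-10) at day 4 and a log2 change of 1.38 (SE 0.11, adjusted p = 2.39e-09) at day 6, and no Dex against KO a log2 change of 0.62 (SE 0.11, adjusted p = 1.62e-04) at day 6. Dex against no Dex was -0.09 at day 6 (SE 0.11, adjusted p = 0.566). Nkd1 also lies on chromosome 8, and its KO against WT change at day 6 stands beside a chromosome median of 0.350.

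**Figure D2:**
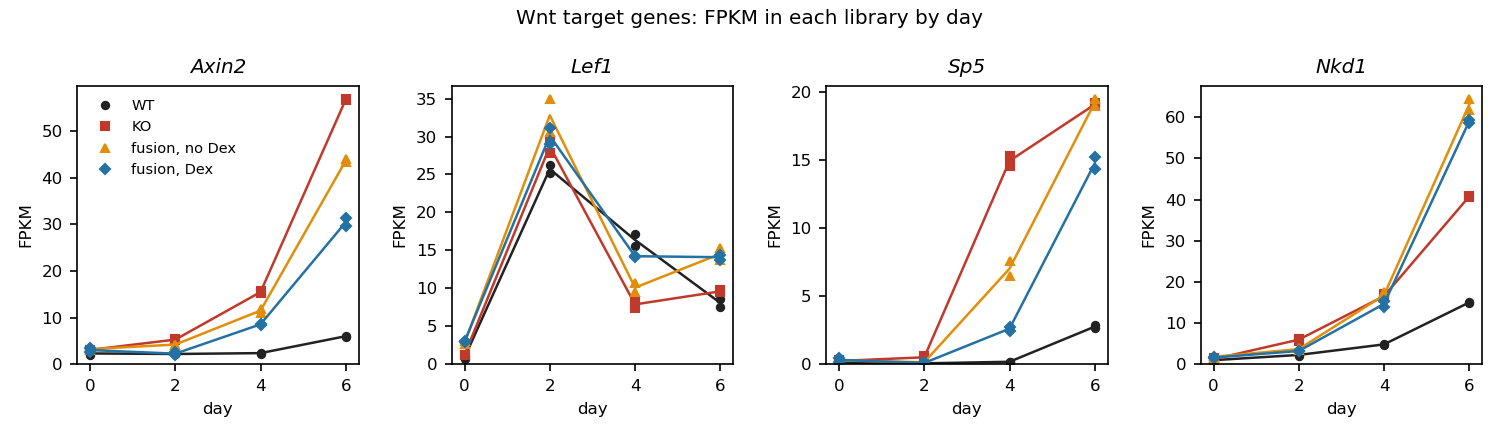
FPKM (vertical axis, linear) of the 4 target genes by day, 1 point per library and lines through the group means of 2 libraries. Axin2 at day 6 falls in the order KO, no Dex, Dex, WT, from 56.8 to 5.99 FPKM on average, and Lef1 peaks at day 2 in all 4 cultures.

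Lef1 had another course than the other targets. It was highest at day 2 in every culture, at 26.3 and 25.1 FPKM in WT, 29.5 and 27.9 in KO, 34.95 and 30.7 in no Dex and 29.1 and 31.1 in Dex. At day 0 it had been 0.64 and 1.13 in WT and 1.24 and 1.22 in KO, and 3.01 and 2.59 in no Dex and 2.98 and 2.94 in Dex. At day 4, when Axin2 and Sp5 were highest in KO, Lef1 was lowest there: 7.43 and 8.31 FPKM against 9.47 and 10.7 in no Dex, 14.2 and 14.3 in Dex and 17.1 and 15.6 in WT. The 4 groups were separate at day 4, in the reverse of the Axin2 order. KO against WT gave a log2 change of -0.97 (SE 0.10, adjusted p = 5.64e-08), and Dex against no Dex a log2 change of 0.46 (SE 0.10, adjusted p = 8.95e-04). At day 6 the fusion cultures held 13.8 and 15.3 and, with Dex, 13.8 and 14.4, above KO at 9.73 and 9.45 and WT at 8.58 and 7.56. KO against WT at day 6 missed the threshold, with a log2 change of 0.23 (SE 0.10, adjusted p = 0.0514), and the adjusted p over the alternatives ranged from 0.0291 to 0.321. An antisense gene overlaps Lef1 in the annotation, as one does Axin2 and Sfrp2, and whether reads were counted by strand is not given in the sources used here, so their reads cannot be told apart. Lef1 and Nkd1 each also overlap a gene on the same strand (Gm42449 and Gm45496), whose reads counting by strand would not separate.

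The cultures differed at the same days in markers of neural crest, a derivative of dorsal neural tissue that depends on Wnt. At day 6 the summed FPKM of Sox10, Foxd3, Tfap2a, Tfap2b and Snai2 was 3.52 and 3.35 in WT, 47.97 and 48.1 in KO, 50.4 and 51.5 in no Dex and 22.4 and 20.7 in Dex. None of the 5 reached 1 FPKM in WT and all 5 did in KO, no Dex and Dex. At day 4, when Axin2 and Sp5 were already apart, the sums were 5.91 and 5.47 in WT and 11.9 and 12.7 in KO. That day 3 of the 5 passed the threshold above WT and 1 below it, and Tfap2a alone rose by over 1 on the log2 scale. Earlier sums in WT were larger, at 16.7 and 17.9 on day 0 and 32.4 and 33.3 on day 2. Only 1 of the 5 was then at or above 1 FPKM in WT, so those sums came mostly from 1 gene. Markers of mesenchyme (Twist1, Prrx1, Col1a1, Col3a1 and Meox1) summed to 2.76 and 2.58 in WT and 27.3 and 28.8 in KO at day 6, with 1 of 5 at or above 1 FPKM in WT and 4 in KO. Eye field sums at day 4 were 125 and 123 in WT, 21.8 and 21.9 in KO, 61.2 and 60.3 in no Dex and 310.2 and 309.7 in Dex. The Dex cultures, whose Axin2 lay between no Dex and WT, thus had a higher eye field sum than WT at day 4. Primitive streak markers (T, Eomes, Mixl1 and Gsc), another setting of Wnt target activity, summed to 10.98 and 10.9 in WT and 9.11 and 9.72 in KO at day 4. Their day 2 sum was higher in KO, at 13.5 and 13.7 against 7.62 and 7.31 in WT, with 1 gene at or above 1 FPKM in each. Midbrain and hindbrain markers (En1, En2, Pax2, Gbx2, Hoxb1 and Egr2) summed to 43.8 and 42.8 in WT and 4.08 and 3.93 in KO at day 6, a sum made up mostly of Pax2 in WT (40.1 and 38.9 FPKM), a gene also expressed in the optic stalk. At day 4 the sum was higher in KO, at 16.4 and 16.2 against 4.20 and 4.62 in WT. General neural progenitor markers (Sox1, Pax6, Nes, Fabp7 and Sox3) summed to 393 and 382 in WT and 552 and 552 in KO at day 6. The part of cell makeup in the target gene differences was not tested.

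Without Dex, no member of the fusion culture differed from KO by a log2 change of 1 on the log2(FPKM + 1) scale, while with a pseudocount of 0.1, 1 member did at each day (Lef1 at day 0, Sp5 at days 2 and 4, Dkk1 at day 6). No Dex against KO called 4 of 10 members at day 0 (3 higher and 1 lower), beside 49.1% of all tested genes, 8 of 10 at day 2 (1 higher and 7 lower) beside 37.0%, 4 of 10 at day 4 (2 higher and 2 lower) beside 26.7%, and 8 of 10 at day 6 (5 higher and 3 lower) beside 49.0%. None passed a log2 change of 1 at days 0, 2, 4 or 6, beside 1.36%, 0.295%, 0.233% and 2.03% of all genes, so few genes of any kind did. Sp5 at day 4 came nearest among the targets, at -0.99, and without the first KO or the first no Dex library of day 4 it passed 1. Among the antagonists Frzb at day 6 differed by -0.83 (SE 0.08, adjusted p = 3.71e-08). The day 2 count fell to 5 without the second no Dex library and to 4 in a fit of the 2 groups alone, and the day 4 count fell to 2 in such a fit.

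With Dex, the fusion culture had lower Axin2 at days 2, 4 and 6, lower Sp5 at day 4, and higher Dkk1 at days 4 and 6 than without it. At day 2 Axin2 was 1.97 and 2.50 FPKM with Dex and 4.20 and 4.19 without, separate groups with a log2 change of -0.69 (SE 0.08, adjusted p = 1.44e-06). Dex against no Dex called 2 of 10 members at day 0 (1 higher and 1 lower), beside 43.4% of all tested genes, and 5 of 10 at day 2 (1 higher and 4 lower), beside 44.3%. It called 8 of 10 at day 4 (5 higher and 3 lower), beside 40.2%, and 7 of 10 at day 6 (3 higher and 4 lower), beside 42.7%. Past a log2 change of 1 were 0, 0, 1 and 0 members, beside 0.498%, 0.467%, 0.915% and 1.52% of all genes, the one being Sp5 at day 4. Frzb lay just short of 1 at day 4 and passed it without the first no Dex library and after rescaling. The day 4 count was 5 without the second Dex library. The median log2 change of the members was 0.06 at day 4 and -0.07 at day 6, against -0.009 and 0.009 for all tested genes. Pigment epithelium markers (Mitf, Tyr, Pmel, Trpm1 and Dct) summed to 103 and 102 in Dex and 1.67 and 1.93 in no Dex at day 6, with Tyr at 0 in both, and their part in these differences was not tested.

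**Figure D3:**
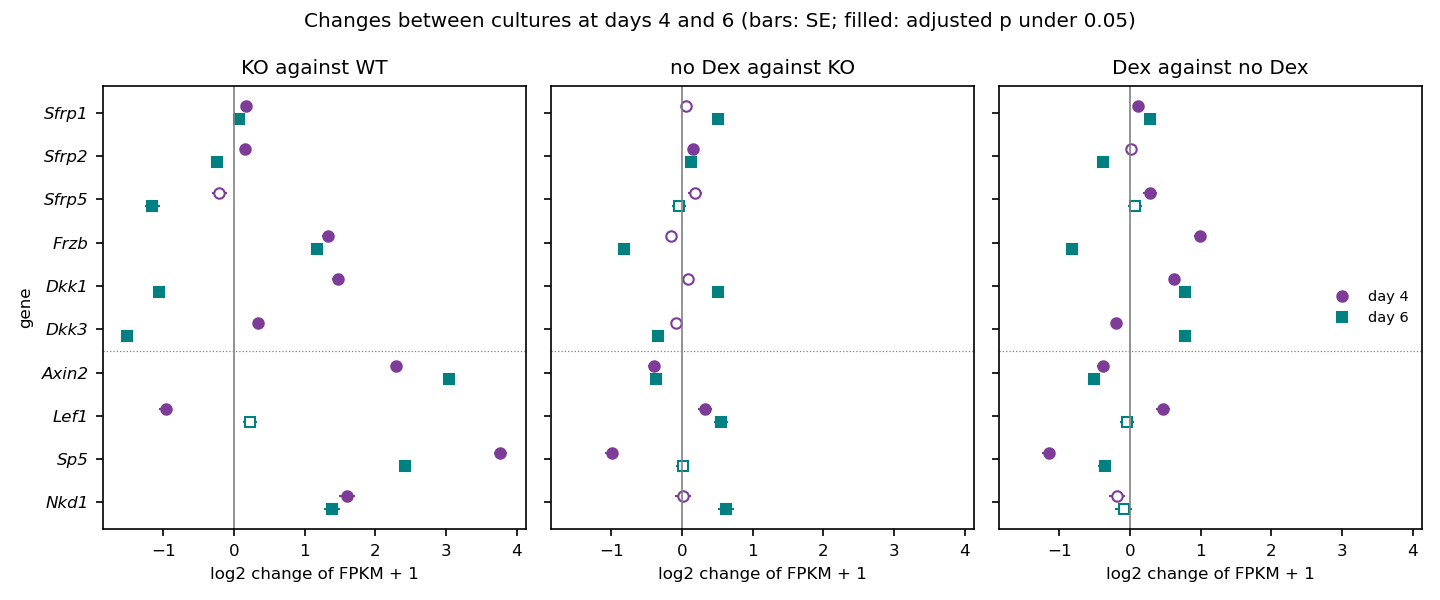
Log2 change of FPKM + 1 (horizontal axis) of each member at days 4 (circles) and 6 (squares) for KO against WT, no Dex against KO and Dex against no Dex, with SE bars, filled where the adjusted p was under 0.05. Neighbouring panels share libraries, KO or no Dex, and Sp5 at day 4 stands at 3.77, -0.99 and -1.15 in the 3 panels.

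At days 4 and 6 the Dex culture had higher Axin2, Sp5 and Nkd1 than WT. Dex against WT, which shares the WT libraries with KO against WT, called 6 of 10 members at day 0 (3 higher and 3 lower) beside 49.8% of all genes, 3 of 10 at day 2 (1 higher and 2 lower) beside 29.4%, 7 of 10 at day 4 (7 higher and 0 lower) beside 44.7%, and 10 of 10 at day 6 (6 higher and 4 lower) beside 61.4%. Past a change of 1 at days 0, 2, 4 and 6 were 1, 0, 5 and 5 members, beside 1.70%, 0.977%, 2.01% and 5.90% of all genes. At day 4 the 5 were Frzb (2.16), Dkk1 (2.18), Axin2 (1.51), Sp5 (1.62) and Nkd1 (1.43). At day 6 they were Axin2 (2.17), Sp5 (2.07) and Nkd1 (1.91), higher, and Sfrp5 (-1.13) and Dkk3 (-1.09), lower. The day 0 member was Lef1 (1.08), which fell below 1 without the first WT day 0 library, the shallowest of the 32. The day 2 count was 1 in a fit of the 2 groups alone. The chromosome 8 median for Dex against WT was 0.313 at day 4 and 0.350 at day 6, beside 0.34 and 0.86 for Sfrp1.

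**Figure D4:**
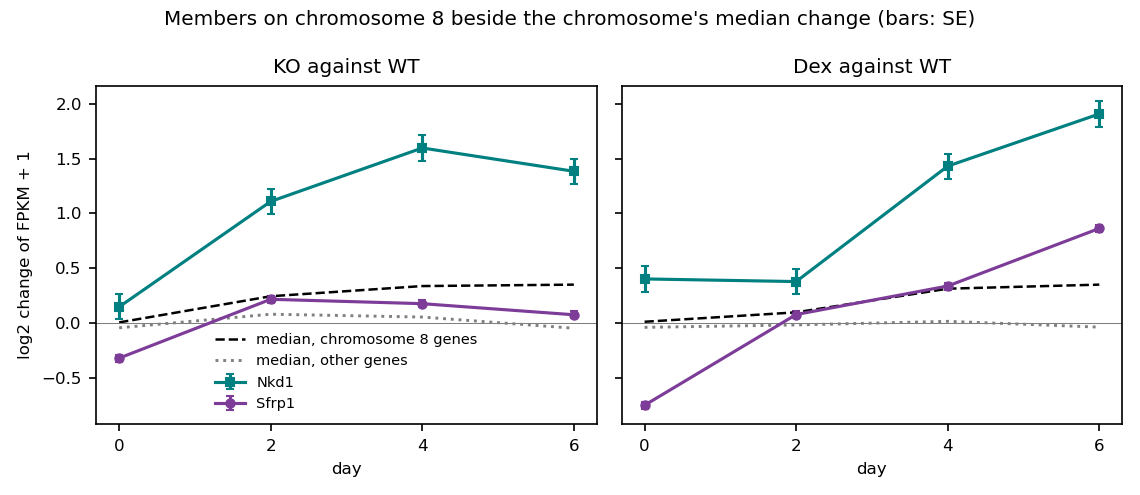
Log2 change of FPKM + 1 (vertical axis) by day for Nkd1 and Sfrp1 with SE bars, for KO against WT and Dex against WT, beside the median of the 858 tested chromosome 8 genes (dashed) and of all other tested genes (dotted). For KO against WT, Sfrp1 lies below the dashed line at every day and Nkd1 above it.

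Over the whole course every member changed in every culture. From day 0 to day 6, 10 of 10 members were called in WT, KO, no Dex and Dex, 9 higher and Sfrp5 lower in each, beside 78.1%, 80.4%, 81.9% and 80.4% of all tested genes. A change of at least 1 was passed by 8, 8, 8 and 10 members in that order, beside 28.1%, 31.9%, 34.0% and 31.9% of all genes. In WT the changes were 3.52 for Sfrp2, 3.04 for Nkd1, 2.73 for Frzb and 1.09 for Axin2. In KO they were 3.67 for Sfrp2, 4.27 for Nkd1, 4.02 for Frzb and 3.84 for Axin2. Rescaling the libraries moved the median change of all genes by over 0.1 in these 4 comparisons, from 0.089 to -0.026 in WT, 0.094 to -0.009 in KO, 0.166 to -0.025 in no Dex and 0.135 to -0.010 in Dex, and 10 members were called with that rescaling in each.

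The change in the KO against WT difference from day 0 to day 6 was itself tested, as was that of Dex against no Dex. The first was called for 8 of 10 members (6 higher and 2 lower), beside 56.9% of all tested genes, with Axin2 at 2.74 (SE 0.12, adjusted p = 2.51e-13), Sp5 at 2.29 (SE 0.13, adjusted p = 1.59e-11) and Nkd1 at 1.24 (SE 0.16, adjusted p = 2.31e-06). For Lef1 it was -0.03 (SE 0.14, adjusted p = 0.879). Sfrp1 and Sfrp2 were among the 6 higher, though their KO against WT difference became smaller in size. It went from -0.32 to 0.07 for Sfrp1 and from -0.40 to -0.25 for Sfrp2. The second was called for 6 of 10 members (2 higher and 4 lower), beside 48.7% of all genes, with Frzb at -0.96 (SE 0.11, adjusted p = 6.94e-07) and Dkk3 at 0.81 (SE 0.09, adjusted p = 2.84e-07).

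Across the 16 group means of log2(FPKM + 1), Axin2 correlated with Sp5 at Pearson r 0.96 and with Nkd1 at 0.93, and Sp5 with Nkd1 at 0.93, while Lef1 correlated with Axin2 at 0.15 and with Sp5 at 0.09. Among the antagonists Sfrp1 and Frzb stood at 0.90, Frzb and Dkk1 at 0.80, and Sfrp5 was at or below 0.09 with every other member. The 16 groups share lines and days, so these values describe the groups and carry no test. The tested genes with the patterns most like the targets over the same 16 means were Gm49864 (r 0.986), Oxsm (0.981) and Slc25a18 (0.977) for Axin2, Cacna1c (0.976), Asgr1 (0.974) and Ednra (0.974) for Sp5, and Ctxn1 (0.986), Tbx6 (0.985) and Gm28551 (0.985) for Nkd1. For Lef1 they were Lef1os1 (0.959), named as an opposite-strand transcript of Lef1, then Ier5 (0.943) and Mfap4 (0.940). For the antagonists they were Sox9 (0.981), Fam114a1 (0.980) and Cpe (0.980) for Sfrp1, Tcf12 (0.984), Mgst1 (0.983) and Gpr137b (0.980) for Sfrp2, and Prokr1 (0.983), Vstm2b (0.982) and Arsi (0.982) for Frzb. Dkk3 was most like Cd83 (0.965), H2-Q5 (0.965) and Fam92b (0.958). Sfrp5 and Dkk1 had looser partners, Fzd5 (0.911), Tnfrsf1b (0.895) and Mcm3 (0.894) for Sfrp5, and Eps15 (0.884), Slc38a5 (0.883) and Pla2g7 (0.865) for Dkk1. Fzd5 is a Frizzled receptor of the eye field.

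Other genes of the pathway were read from lists, with the genes named being those of highest group mean in each list. Wnt ligands, the proteins the antagonists bind, were called in 8 of 12 (7 higher, 1 lower) tested for KO against WT at day 4 and 11 of 12 (6 higher, 5 lower) at day 6, beside 60.5% and 65.1% of all tested genes, with medians of 0.35 and 0.63 against 0.065 and -0.031 over all genes. Wnt1, a ligand of the dorsal midbrain and neural tube, was 1.60 and 1.36 FPKM in WT, 57.96 and 59.4 in KO, 37.9 and 40.6 in no Dex and 15.1 and 15.1 in Dex at day 6. Its order across the cultures was that of Axin2, with no overlap, and at day 4 it was 0.44 and 0.51 in WT, 7.14 and 7.14 in KO, 6.09 and 6.44 in no Dex and 4.25 and 4.19 in Dex. Wnt7b at day 6 was 17.4 and 16.8 in WT, 9.34 and 9.12 in KO, 81.6 and 81.3 in no Dex and 105 and 103 in Dex. Wnt8b was 7.96 and 7.70 in WT, 6.13 and 5.37 in KO, 70.1 and 73.9 in no Dex and 47.1 and 44 in Dex, so that both were higher in the fusion cultures than in KO, as Nkd1 was. Wnt5b, a ligand mostly linked to other Wnt routes, was highest in WT, at 27.8 and 26.3 FPKM against 10.4 and 10.5 in KO.

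Agonists and the secretion machinery were called in 3 of 5 (3 higher, 0 lower) at day 4 and 5 of 5 (4 higher, 1 lower) at day 6 for KO against WT, beside the same 60.5% and 65.1% of all genes, with a day 6 median of 2.58. Wls, which carries Wnt proteins to the cell surface, was 17.5 and 17.6 FPKM in WT, 141 and 139 in KO, 90.6 and 90.2 in no Dex and 44.6 and 45.7 in Dex at day 6, in the order of Axin2 and without overlap. Rspo3, an R-spondin that raises receptor levels, was 3.99 and 3.97 in WT, 9.32 and 9.44 in KO, 84.5 and 82.96 in no Dex and 35.6 and 34.5 in Dex. Rspo2 was 2.25 and 2.20 in WT, 18.4 and 18.2 in KO, 48.5 and 47.9 in no Dex and 23.97 and 23.8 in Dex. Both were highest in no Dex and lowest in WT, with no overlap between groups. Rspo1 was 4.26 and 4.28 in WT and 49.5 and 48.9 in KO.

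**Figure D5:**
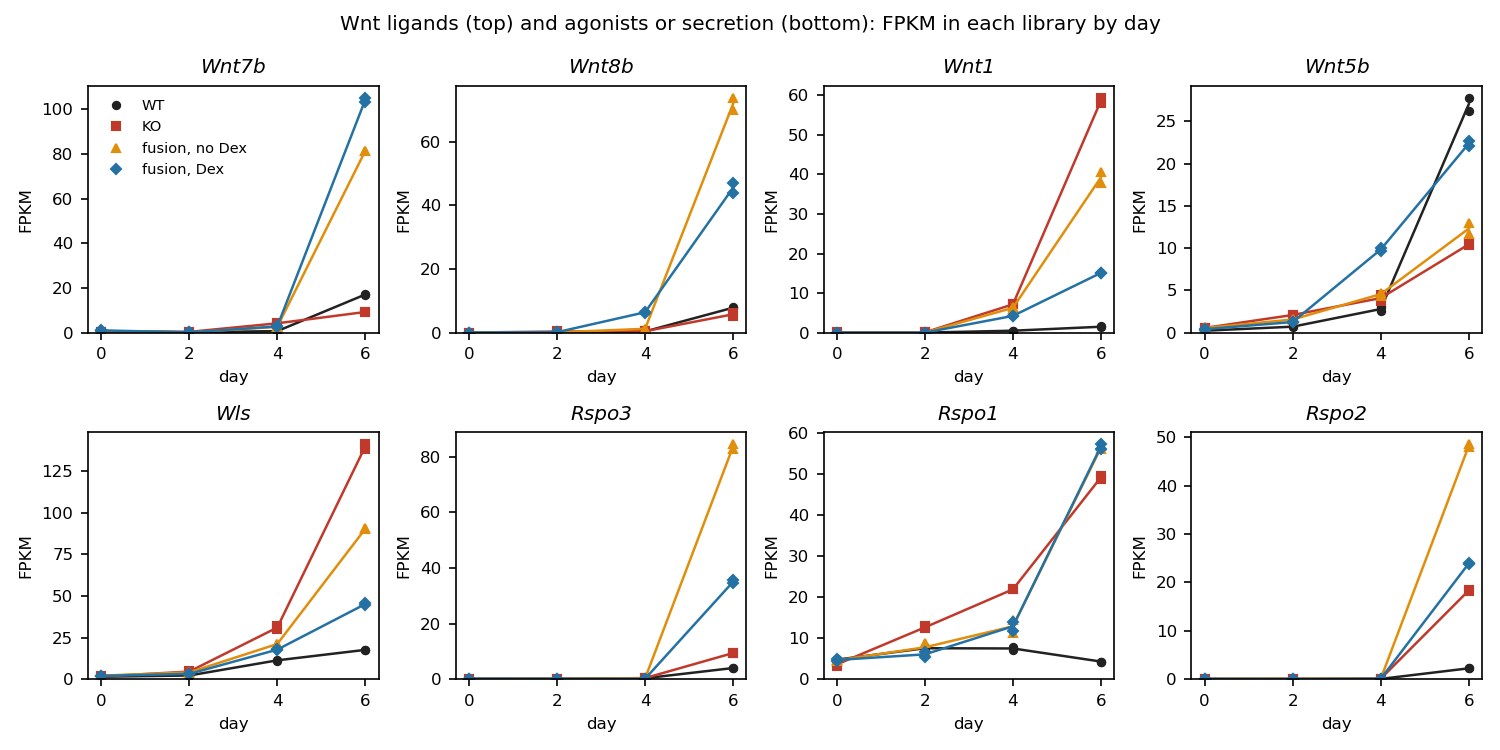
FPKM (vertical axis, linear) by day of the 4 Wnt ligands (top) and the 4 genes among agonists and secretion (bottom) with the highest group means in their lists, 1 point per library and lines through group means. Wnt1 and Wls at day 6 fall in the order KO, no Dex, Dex, WT, while Rspo3 and Rspo2 are highest in no Dex.

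Receptors were called in 12 of 15 (10 higher, 2 lower) at day 4 and 11 of 15 (5 higher, 6 lower) at day 6 for KO against WT, beside 60.5% and 65.1% of all genes, with a day 6 median of -0.069. Fzd10 was 1.44 and 1.14 FPKM in WT, 129 and 129.5 in KO, 26.04 and 26.2 in no Dex and 9.85 and 10.1 in Dex at day 6, again in the order of Axin2. Fzd5 was highest in WT, at 41.9 and 42.5 in WT, 1.12 and 1.16 in KO, 0.69 and 0.78 in no Dex and 2.60 and 2.74 in Dex. Other antagonists and their coreceptors were called in 4 of 9 (1 higher, 3 lower) at day 4 and 7 of 9 (4 higher, 3 lower) at day 6, against the same 60.5% and 65.1%, with a day 6 median of 0.26. Shisa2, which holds back Frizzled receptors inside the cell, was 215 and 211 FPKM in WT, 7.69 and 8.06 in KO, 4.67 and 4.30 in no Dex and 55.6 and 54.5 in Dex at day 6.

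Other direct feedback targets were called in 7 of 11 (7 higher, 0 lower) at day 4 and 10 of 11 (8 higher, 2 lower) at day 6 for KO against WT, where 60.5% and 65.1% of all genes were called, with medians of 0.36 and 0.47. Apcdd1, a membrane inhibitor of Wnt signalling, was 4.26 and 3.71 FPKM in WT, 24.5 and 25 in KO, 12.4 and 12.6 in no Dex and 6.41 and 5.27 in Dex at day 6. Of the 11, 2 passed a log2 change of 1 at day 4 and 1, Apcdd1, at day 6, all higher in KO. Over all tested genes 5.54% and 10.0% did, in either direction. Myc and Ccnd1, cell cycle genes with many inputs besides Wnt, were lower in KO at day 6, Myc at 9.76 and 11.1 against 19.7 and 20.9 in WT and Ccnd1 at 22.2 and 23 against 34.5 and 35.3. The cytoplasmic core and TCF factors were called in 8 of 11 (3 higher, 5 lower) at day 4 and 8 of 11 (3 higher, 5 lower) at day 6, again beside 60.5% and 65.1%, with a day 6 median of -0.027. Ctnnb1, which encodes β-catenin, was 515 and 534 FPKM in WT and 406 and 399.6 in KO at day 6. Tcf7l1, a mainly repressive TCF factor, was 66.3 and 63.4 in WT, 26.8 and 25.96 in KO, 14.7 and 15.9 in no Dex and 35.3 and 36.3 in Dex.

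For Dex against no Dex at day 6 the same lists gave 10 of 12 (3 higher, 7 lower) for ligands, 3 of 5 (0 higher, 3 lower) for agonists and secretion, 11 of 15 (8 higher, 3 lower) for receptors, 7 of 11 (3 higher, 4 lower) for other feedback targets, 7 of 9 (4 higher, 3 lower) for other antagonists and 8 of 11 (5 higher, 3 lower) for the core and TCF factors, beside 42.7% of all tested genes. Their medians were -0.40, -0.98, 0.57, -0.041, 0.05 and 0.046, against 0.009 over all tested genes. Wnt1 gave a log2 change of -1.32 (SE 0.05, adjusted p = 1.17e-13), Wls a log2 change of -0.99 (SE 0.10, adjusted p = 1.77e-07) and Rspo3 a log2 change of -1.23 (SE 0.05, adjusted p = 4.63e-13). The lists were written with earlier results of these data known, so their direction is no independent evidence.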

How the data were processed

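The authors deposited 1 table of FPKM values to 2 decimals for 32 libraries, and per the submitters' processing notes STAR and Cuffdiff were used on mm10, with versions and strand setting not given in the sources used here. FPKM + 1 was log2 transformed and fitted with limma 3.58.1 (R 4.3.3) over 16 groups with a mean-variance trend and 16 residual degrees of freedom. The 16276 genes with at least 2 libraries at 1 FPKM or more were tested, two-sided, with Benjamini-Hochberg adjustment over all of them, and called at an adjusted p under 0.05. The scripts were tested on simulated data. The 10 members, the pathway lists (ligands, receptors, other antagonists, agonists and secretion, other feedback targets, core and TCF factors) and the marker lists were chosen with earlier results of these data known. Some marker genes are not reported here, and the sums given leave them out. The text names the members, the 3 genes most like each by Pearson r, and at most 6 genes per pathway list, those of highest group mean.

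FPKM carry no depth of their own. Depth was therefore estimated as the value that brings low FPKM of genes with 1 annotated transcript closest to whole fragments, with 0.3 kb taken off every transcript length. Transcript length alone and relative depths were tried first and fitted worse, so this form and its offset were chosen after seeing the data. Between 87.9% and 93.0% of low values then lay within 0.2 of a whole fragment, where an even spread gives 40.0%, and since the depth was picked to raise that share it is no independent check. No count test was run. The libraries' replicate numbers were not taken as pairs: differences within duplicates correlated between groups at -0.088 to 0.125 over 120 pairs of groups. Alternatives were a pseudocount of 0.1, no filter, a mean FPKM of at least 5, median-of-ratios rescaling, the compared groups alone, a replicate block, leaving out each library and subtracting the median of a gene's own chromosome.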

Additional observations from a re-analysis of the deposited data

Results flagged for a closer look

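Whether KO differed from WT by another amount at day 6 than at day 0 was tested in 1 limma model, and it did for 8 members at an adjusted p under 0.05. The change in the difference, on the log2 scale, was 2.74 for Axin2, 2.29 for Sp5, 1.29 for Frzb, 1.24 for Nkd1, 0.40 for Sfrp1 and 0.15 for Sfrp2, and -1.50 for Dkk3 and -1.21 for Sfrp5. The Sfrp2 value missed the threshold in 5 of 14 alternatives (adjusted p from 0.0112 to 0.134), among them those without the first WT or first KO library of day 0 and without the second WT or second KO library of day 6. The Sfrp1 value stands beside a chromosome 8 median of KO against WT that went from 0.005 at day 0 to 0.350 at day 6.

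For Dex against no Dex the same comparison of days was past the threshold for 6 members, at 0.81 for Dkk3, 0.70 for Dkk1, -0.96 for Frzb, -0.43 for Axin2, -0.40 for Sp5 and -0.19 for Sfrp2. The Sp5 value missed the threshold in 5 of 14 alternatives (adjusted p from 0.00208 to 0.448), among them those without the first no Dex library of day 0, the second Dex library of day 0 or the first Dex library of day 6. The Sfrp2 value missed it after rescaling. With 2 libraries a group, no library could be tested as standing apart from its group.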

How the results depend on the processing

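Of 256 called member values, 213 passed the threshold in every alternative with a test and 43 missed it in 1 or more. Of 42 counts of called members, none moved by over 1.5 times without the filter or with the replicate block. The block ended 1 call, Sfrp1 for KO against WT at day 6 (adjusted p = 0.0528).

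A pseudocount of 0.1 gave, past a log2 change of 1, 1 member for KO against WT at day 0 and 6 at day 2, 1 for no Dex against KO at days 0, 2, 4 and 6, 2 at days 4 and 6 for Dex against no Dex, and 2 at days 0 and 2 for Dex against WT. A mean FPKM of at least 5, which leaves Sfrp5, Dkk1 and Dkk3 untested, gave 5 called for KO against WT at day 2 with 1 past a change of 1, and 4 past it at day 6. It gave 3 called at day 2 and 5 at day 4 for Dex against no Dex, and for Dex against WT 1 called at day 2 and 3 past a change of 1 at day 6. Rescaling gave 2 past a change of 1 for Dex against no Dex at day 4. The compared groups alone, with fewer residual degrees of freedom, gave 2 called for KO against WT at day 0, 4 at day 2 and 2 at day 4 for no Dex against KO, and 1 for Dex against WT at day 2. Shares of all genes called under these settings are not given here, so the lower counts may not be particular to the members.

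Leaving out 1 library gave 3 to 5 called for KO against WT at day 0, 0 to 1 past a change of 1 for Dex against WT at day 0, 5 to 7 called for no Dex against KO at day 2, and 0 to 1 past a change of 1 at day 4. For Dex against no Dex at day 4 it gave 5 to 7 called and 1 to 2 past a change of 1. Where a group was left with 1 library, that library was assumed to vary like the other groups. Subtracting the median of the own chromosome reversed Sfrp1 for KO against WT, with day 2 at -0.028, day 4 at -0.16 and day 6 at -0.27. The cause of each of these moves beyond those named was not tested. Depth limits the low members: at 0.032 to 0.064 FPKM for 3 fragments on 2 kb, some low groups lay near the limit, among them Sfrp5 at day 6 outside WT, Frzb in KO at day 0, Dkk1 in KO at day 2 and Sp5 in WT at day 2.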
